A study of Mus musculus with 2 samples.

Results

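The genes described here are 42 genes that neurons use for their cytoskeleton, their synapses and secretory granules, and their identity as sensory, autonomic or other neurons. They were chosen by name, and all 42 were found by Ensembl gene identifier among the 43346 mouse genes of the deposited tables, of which 21474 are protein coding. Facial prominence, the embryonic tissue from which the face and jaws form, had been taken from B6NCrl mice at embryonic day 15.5 and its total RNA sequenced in 2 libraries. Both libraries belong to 1 group with no stated treatment or mutation: replicate 1 pooled 78 embryos and replicate 2 pooled 62, of mixed sex, and each began with 10 ng of RNA longer than 200 nucleotides. The labels call them biological replicates and name no other condition, so every level below is a description over 2 libraries and no p-value is given.

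Sensory neurons that serve the face keep their cell bodies in ganglia such as the trigeminal ganglion, and send axons into the skin, the teeth and the muscles. Axons carry their own messenger RNAs, and those of several cytoskeletal proteins are well known from axons of cultured neurons. Olfactory neurons differ in that their cell bodies lie in the nasal lining, within the face itself. Neurons are also told apart by the transmitter they release: glutamate, GABA and noradrenaline each need their own enzymes or vesicle transporters, while pain-sensing neurons add peptides such as CGRP and substance P. In whole tissue, fewer cells of a type and less RNA per cell cannot be told apart.

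Expected counts, which are the authors' estimates of the reads belonging to each gene, summed to 37128010 in replicate 1 and 38543623 in replicate 2. Levels are in TPM, the share of transcripts that a gene makes up in a library after correction for length. For a transcript 1 kb long, each read was worth 0.0406 TPM in replicate 1 and 0.0389 TPM in replicate 2, so that 3 reads gave 0.122 TPM and 0.117 TPM. Spike-in sequences took 6.42% of all TPM in replicate 1 and 10.1% in replicate 2. Markers of the labelled tissue were high: all 6 facial mesenchyme genes were detected, and Msx1 and Prrx1 stood at 145 TPM and 79.0 TPM in replicate 1 and at 158 TPM and 86.1 TPM in replicate 2.

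A gene was called detected at 1 TPM or more in both libraries. That held for 28 of the 42 genes, against 65.4% of all protein coding genes, so the share of neuronal genes detected was near the background. Syn1 and Slc17a6 passed in replicate 2 only. The median level of the 42 was 2.79 TPM in replicate 1 and 3.4 TPM in replicate 2, below the medians of 6 TPM and 6.20 TPM over coding genes. Their sum was 428 TPM in replicate 1 and 478 TPM in replicate 2. Vamp2, Gap43, Uchl1, Tubb3 and Stmn2, the 5 genes at 30 TPM or more in both libraries, made 67.5% of that sum in replicate 1 and 66.5% in replicate 2.

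**Figure D1:**
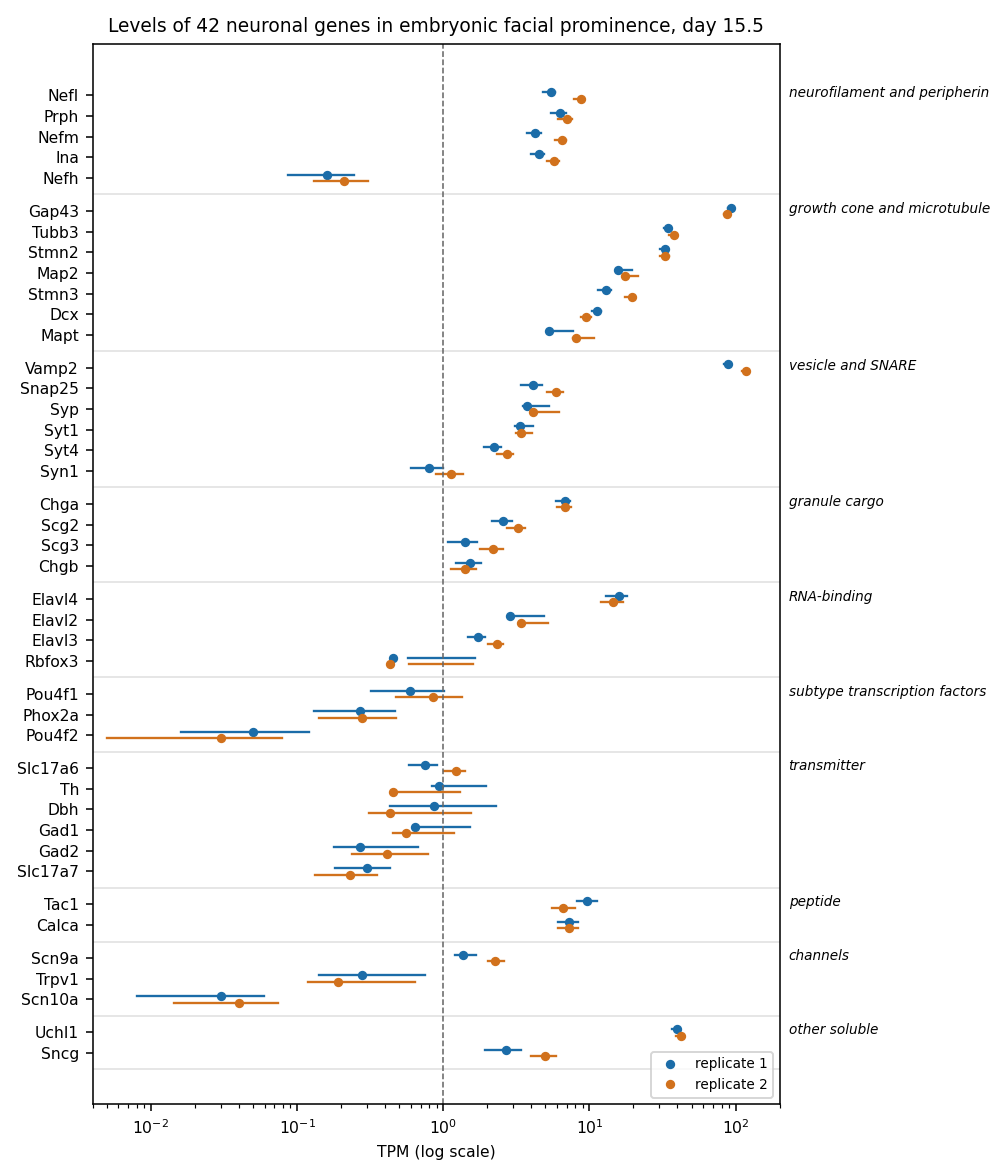
Level of each of the 42 genes in TPM on a log axis, grouped by role, with replicate 1 drawn above replicate 2 and the bars giving the authors' deposited credibility bounds, whose level is not printed in the tables and which for a few genes lie off the point. The dashed line marks 1 TPM: all 7 growth cone and microtubule genes lie to its right, while all 3 subtype transcription factors and 5 of the 6 transmitter genes lie to its left in both libraries.

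Among the role groups of 3 or more of the 42 genes, that of the growing axon had the highest median level. The growth cone and microtubule group had a median of 16.6 TPM, and all 7 of its genes were detected. Gap43 (ENSMUSG00000047261.9, GRCm38 chr16:42248442-42340651), which encodes a membrane protein of growth cones, had 93.3 TPM in replicate 1 and 87.6 TPM in replicate 2, or 90.4 ± 4.05 TPM (SD, n = 2). It rested on 3037 and 2973 counts and lay above 92.2% of coding genes. Tubb3, the neuronal beta-tubulin, had 34.6 TPM in replicate 1 and 37.8 TPM in replicate 2. In GENCODE M21 it overlaps Gm20388, a coding gene on the same strand that was given 549 and 756 counts beside the 1507 and 1718 counts of Tubb3. The counts of Tubb3 were whole and the sums of both genes were fractional, at 2055.88 and 2473.61. A division of reads between them was thus not seen, but the overlap leaves some uncertainty in the level of Tubb3. Stmn2, a tubulin-binding protein of regrowing axons, differed little between the libraries, with 32.7 TPM in replicate 1 and 33.0 TPM in replicate 2. Its relative Stmn3 had 13.0 TPM in replicate 1 and 19.4 TPM in replicate 2. Map2, the microtubule protein of dendrites, had 15.7 TPM and 17.5 TPM, and Mapt, which encodes the axonal protein tau, had 5.28 TPM and 8.13 TPM. Dcx, which young migrating neurons use to bundle microtubules, ran the other way, at 11.3 TPM in replicate 1 and 9.53 TPM in replicate 2.

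The intermediate filament genes sat lower, and the heavy chain stood apart. Neurofilaments are built from a light, a medium and a heavy chain, with Ina or peripherin as partners, and the heavy chain is known as the late one in development. The light chain gene Nefl had 5.48 TPM in replicate 1 and 8.72 TPM in replicate 2, and the medium chain gene Nefm had 4.26 TPM and 6.47 TPM. Prph, peripherin, which is typical of peripheral neurons, had 6.31 TPM and 7.0 TPM, and Ina had 4.53 TPM and 5.75 TPM. The heavy chain gene Nefh had 0.16 TPM in replicate 1 and 0.21 TPM in replicate 2, on 15 and 21 counts. Every one of the other 4 filament genes was above 4 TPM in both libraries, with no overlap with Nefh. Nefl and Nefm lie on opposite strands and overlap in M21. Their expected counts were fractional, 443.04 and 340.96 in replicate 1 and 735.21 and 538.79 in replicate 2, yet summed to whole numbers of 784 and 1274, as when reads are divided between genes. The same was seen for Ina with Nt5c2, for Syp with the antisense gene Gm14703 and, in replicate 2, for Syt4 with the antisense gene Gm26658. The strand setting is not given in the sources used here, so the levels of these genes are uncertain.

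Among the genes of synaptic vesicles, 1 member held most of the signal. Vamp2 (ENSMUSG00000020894.12, chr11:69088490-69092384), the vesicle SNARE of neurons and of many secretory cells, had 88.5 TPM in replicate 1 and 117 TPM in replicate 2, or 103 ± 20.3 TPM (SD, n = 2). Snap25, its partner SNARE on the plasma membrane, had 4.08 TPM and 5.89 TPM. The vesicle membrane protein gene Syp had 3.74 TPM and 4.13 TPM, the calcium sensor gene Syt1 had 3.35 TPM and 3.39 TPM, and Syt4 had 2.23 TPM and 2.71 TPM. Syn1, which tethers vesicles to one another, was at 0.80 TPM in replicate 1 and 1.13 TPM in replicate 2. So Vamp2 exceeded the next gene of its group in both libraries by more than the spread between them. The 4 granule cargo genes, whose products are packed with hormones and peptides, were all detected. Chga led with 6.76 TPM in replicate 1 and 6.83 TPM in replicate 2, followed by Scg2 with 2.58 TPM and 3.23 TPM. Scg3 had 1.4 TPM and 2.19 TPM, and Chgb had 1.52 TPM and 1.41 TPM. The 22 other vesicle and SNARE genes had a median of 2.74 TPM, and 14 were detected. The highest were Vamp3 with 97.7 TPM in replicate 1 and 96.4 TPM in replicate 2, Snap23 with 40.4 TPM and 39.8 TPM, and Rab3a with 18.3 TPM and 22.5 TPM. Vamp3 and Snap23 are the broadly expressed relatives of Vamp2 and Snap25. The 19 other neuronal cytoskeleton genes all passed 1 TPM and had a median of 38.9 TPM. They were headed by Tuba1a at 1328 TPM in replicate 1 and 1363 TPM in replicate 2, Stmn1 at 1126 TPM and 1131 TPM, and Vim at 910 TPM and 860 TPM, which many dividing cells also express.

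Genes that mark neuronal cell bodies were mostly lower. The RNA-binding Hu protein genes, whose products stabilise neuronal messenger RNAs, were all detected: Elavl4 had 15.9 TPM in replicate 1 and 14.5 TPM in replicate 2, Elavl2 had 2.88 TPM and 3.41 TPM, and Elavl3 had 1.73 TPM and 2.34 TPM. Rbfox3, the splicing factor known as NeuN in mature neurons, had 0.45 TPM and 0.43 TPM. Of the transcription factors that set neuronal subtypes, Pou4f1 of sensory neurons had 0.59 TPM in replicate 1 and 0.85 TPM in replicate 2, Phox2a of autonomic neurons had 0.27 TPM and 0.28 TPM, and Pou4f2 had 0.05 TPM and 0.03 TPM on 4 and 2 counts. None of these 3 was detected by the 1 TPM rule, though Pou4f1 rested on 31 and 41 counts.

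Setting messages reported from axons against cell body messages showed the first list higher in both libraries. The axon-borne list, taken from general knowledge of cultured sensory and sympathetic neurons and not measured here, held 11 genes: Tubb3, Stmn2, Gap43, Nefl, Nefm, Nefh, Prph, Mapt, Uchl1, Sncg and Calca. The cell body list held the 4 RNA-binding genes and the 3 transcription factors. Of the axon-borne genes 10 of 11 were detected, and of the cell body genes 3 of 7, beside the 65.4% of all coding genes. The median was 7.10 TPM for axon-borne genes and 0.72 TPM for cell body genes. The mean of log2(TPM + 1) was 3.45 against 1.30 in replicate 1 and 3.69 against 1.38 in replicate 2, a difference of 2.15 and 2.31 and on average 2.23 ± 0.12 (SD, n = 2 libraries). The lists overlapped, since Elavl4 lay above the axon-borne median and Nefh below the cell body median. The coding models of Elavl4 alone held 4.30 TPM in replicate 1 and 4.93 TPM in replicate 2, below the 7.10 TPM of the axon-borne median. The difference was 1.34 over the genes at 1 TPM or more alone. Genes of structural proteins and genes of regulators differ in level in most cells, and the part of that in this difference was not tested. Both lists were set with earlier results of these data known. Levels in whole tissue do not show where in a neuron a message lay, so the difference cannot place these messages.

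**Figure D2:**
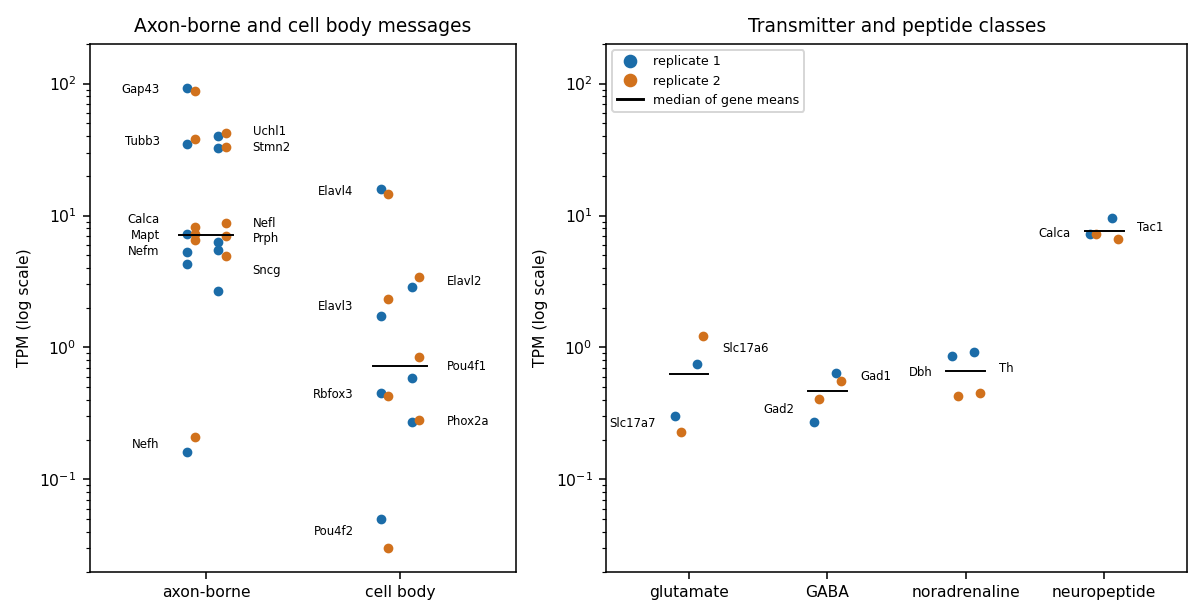
TPM on a log axis of the 11 axon-borne and 7 cell body genes (left) and of the 4 transmitter and peptide classes (right), with blue points for replicate 1, orange points for replicate 2 and a black bar at the median of the gene means. The axon-borne median is 7.10 TPM and the cell body median 0.72 TPM, and both peptide genes lie above all 6 transmitter genes.

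Among the 42 genes, both peptide genes stood above all 6 genes of the classical transmitters. Ddc, from the list of autonomic markers, was higher than both, at 19.5 TPM in replicate 1 and 16.3 TPM in replicate 2. Tac1 (ENSMUSG00000061762.8, chr6:7554879-7565834), the precursor of substance P and neurokinin A, had 9.61 TPM in replicate 1 and 6.62 TPM in replicate 2, and Calca (ENSMUSG00000030669.9, chr7:114631478-114636357), the gene of calcitonin and CGRP, had 7.27 TPM and 7.29 TPM. Together they summed to 16.9 TPM in replicate 1 and 13.9 TPM in replicate 2, or 15.4 ± 2.10 TPM (SD, n = 2). The glutamate class, the vesicle transporters Slc17a6 and Slc17a7, summed to 1.05 TPM and 1.46 TPM. Slc17a6, the transporter typical of sensory neurons, had 0.75 TPM in replicate 1 and 1.23 TPM in replicate 2, and Slc17a7 had 0.30 TPM and 0.23 TPM. The noradrenaline class summed to 1.79 TPM in replicate 1 and 0.88 TPM in replicate 2. Its first enzyme, Th, had 0.93 TPM and 0.45 TPM on 36 and 20 counts, and Dbh, which makes noradrenaline from dopamine, had 0.86 TPM and 0.43 TPM on 30 and 27 counts. So the counts of Dbh differed less between the libraries than its TPM did. In replicate 1 the noncoding model Dbh-202, of 205 nucleotides, held 0.38 TPM on 1 count, which enters the class sum. The coding model Dbh-201 had 0.48 TPM in replicate 1 and 0.43 TPM in replicate 2. The GABA class, the enzymes Gad1 and Gad2, summed to 0.91 TPM and 0.97 TPM. Gad1 had 0.64 TPM and 0.56 TPM and Gad2 had 0.27 TPM and 0.41 TPM. The sums of the glutamate, GABA and noradrenaline classes rested on 47 to 150 counts, and their full order was not settled at this depth. Glutamate was above GABA in both libraries, while noradrenaline was the highest of these classes in replicate 1 and the lowest in replicate 2. With the authors' posterior mean TPM the average sums were 1.25 TPM for glutamate and 1.37 TPM for GABA. Of the channels of pain-sensing neurons, the sodium channel gene Scn9a had 1.36 TPM in replicate 1 and 2.27 TPM in replicate 2. Scn10a had 0.03 TPM and 0.04 TPM on 4 and 6 counts, and the capsaicin receptor gene Trpv1 had 0.28 TPM and 0.19 TPM on 9 and 8 counts.

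Calca shows how 1 gene makes different products by splicing, and both were seen. The transcript that encodes CGRP, the peptide of sensory neurons, took 63.3% of the gene's transcripts in replicate 1 and 72.5% in replicate 2, or 67.9 ± 6.45% (SD, n = 2), on 101 and 121 counts. The calcitonin transcript, known from the C cells of the thyroid, took the other 36.7% and 27.6%, on 50.7 and 39.8 counts. The stretches that tell them apart are shown as read from GENCODE M21 transcripts (GRCm38, minus strand), the CGRP peptide at chr7:114632470-114632580 and calcitonin at chr7:114633665-114633760:
CGRP: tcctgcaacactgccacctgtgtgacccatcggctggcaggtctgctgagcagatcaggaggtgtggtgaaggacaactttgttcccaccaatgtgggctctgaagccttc
calcitonin: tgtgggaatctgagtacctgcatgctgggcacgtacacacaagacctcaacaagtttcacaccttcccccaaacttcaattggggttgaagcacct

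The Tac1 transcripts also differ in the peptides they encode, but here 1 transcript can hold both. Substance P, whose coding stretch lies at chr6:7556732-7556764 on the plus strand, was present in transcripts making 98.5% of the gene's total in replicate 1 and 100% in replicate 2. Neurokinin A, at chr6:7559101-7559130, was in transcripts making 67.3% and 79.9%, or 73.6 ± 8.97% (SD, n = 2). Both peptide stretches are shown because the model Tac1-201 holds the first and lacks the other, while Tac1-203 and Tac1-205 hold both:
substance P: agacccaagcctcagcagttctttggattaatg
neurokinin A: cataaaacagattcctttgttggactaatg

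Snap25 has a pair of exons that exclude each other, of which the b form is known to replace the a form as the brain matures. The model with the b exon took 66.3% in replicate 1 and 79.0% in replicate 2, and the model with the a exon 23.6% and 12.6%. The a model rested on 21.7 and 17.5 counts, and the models also differ in length, with 1014 nucleotides for the a form and 2116 for the b form, so the shares do not rest on the exon alone. The exons are compared here over a stretch of 68 bases, chr2:136769793-136769860 for the a form and chr2:136770107-136770174 for the b form on the plus strand, with capitals at the 19 positions where they differ:
Snap25a exon: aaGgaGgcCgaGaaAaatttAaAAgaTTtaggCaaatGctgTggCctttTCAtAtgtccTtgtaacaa
Snap25b exon: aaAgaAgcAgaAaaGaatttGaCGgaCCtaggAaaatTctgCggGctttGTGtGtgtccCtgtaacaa

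Transcript models without a coding part carried much of the signal of a few genes. Coding models made 90% or more of the transcripts in both libraries for 19 of the 28 detected genes. They made less in both for Elavl2, Elavl4, Syt1, Vamp2, Map2, Uchl1 and Scn9a, and in 1 library for Snap25 and Dcx. By read count the coding models of Vamp2 held 94.6% in replicate 1 and 95.4% in replicate 2. The leading model was protein coding for 26 of the 28, all but Uchl1 and Elavl4. Uchl1, a ubiquitin hydrolase abundant in neurons, had 40.0 TPM in replicate 1 and 42.2 TPM in replicate 2, of which the model Uchl1-202, annotated as a retained intron, took 75.8% and 68.4%. Its coding model Uchl1-201 was at 8.74 TPM and 12.4 TPM. For Elavl4 the noncoding models Elavl4-211 and Elavl4-210 led with 37.1% and 35.8% in replicate 1 and 44.6% and 21.4% in replicate 2, and all coding models together held 4.30 TPM and 4.93 TPM. By read count those coding models of Elavl4 held 66.1% and 71.0% of the gene, since the noncoding ones are short. Map2 was led by Map2-207, a coding model of 5303 nucleotides, with 37.0% in replicate 1 and 33.0% in replicate 2. The short fragment Map2-218 came next with 31.7% and 31.5%, and the retained intron model Map2-212 had 14.3% and 17.2%. Map2-218, of 546 nucleotides, rested on only 54.8 of the gene's 1241 counts in replicate 1 and 63.3 of 1321 in replicate 2. The model with a coding part over 4000 bases, the long form of Map2, took 2.16% and 1.38%. For Mapt, the models Mapt-204, Mapt-201 and Mapt-205 took 38.3%, 31.2% and 17.5% in replicate 1 and 28.0%, 26.5% and 26.9% in replicate 2. Every full-length coding model of Mapt in the annotation holds the second microtubule-binding repeat, so these shares cannot show the choice between forms with and without it. Gad1 was led by the processed transcript Gad1-206 with 52.9% and 71.9%, on a gene total of 42 and 32 counts. Its other models at 10% or more in a library were Gad1-201 with 22.9% in replicate 1 and 0% in replicate 2, Gad1-205 with 19.6% and 4.85%, and Gad1-204 with 0% and 23.3%. The 23.3% of Gad1-204 rested on 1 count.

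**Figure D3:**
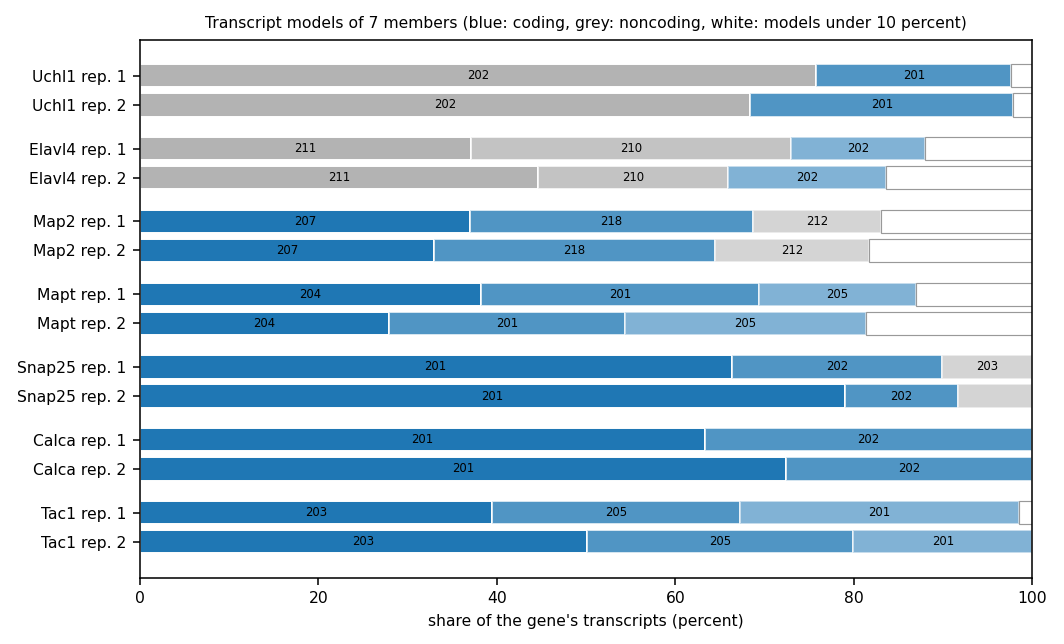
Share of each gene's transcripts, in percent, taken by its transcript models in replicate 1 (upper bar) and replicate 2 (lower bar) for 7 genes, with coding models in blue, noncoding models in grey and models under 10% in both libraries in white; numbers are the annotation's model numbers. Uchl1 and Elavl4 are led by noncoding models, and the b exon model of Snap25 (201) leads the a exon model (202) in both libraries.

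The promoters of neuronal genes can hold RE1, a DNA element bound by the silencer REST, which holds neuronal genes off in other cells. Rest itself had 28.7 TPM in replicate 1 and 28.6 TPM in replicate 2, and its partner Rcor1 had 11.5 TPM and 10.2 TPM. RefSeq windows (build GRCm38.p6) of 250 bases before to 50 after the start were matched for 33 of the 42 genes, in 44 windows. No window was matched for Stmn2, Gap43, Nefl, Nefm, Nefh, Snap25, Syt4, Vamp2 and Mapt. The windows were searched on both strands for TTCAGCACC, 2 free bases and GGACAGCGC, with up to 3 mismatches in the 18 letters. Syn1 and Gad2 held a match, against 0.113% of 32851 windows of the same length over all genes. Binding was not measured, and a link between a match and the level of a gene was not tested. A site outside these windows would not have been seen. Counting from 1 at the first letter of the motif, with the free bases counted, the Syn1 match differed by A14T and C18A and the Gad2 match by T1G, T2G and C3T. The match lay 232 bases before the start of Syn1 and 166 bases before that of Gad2. The windows are chrX:20920869-20921168 on the minus strand for Syn1 and chr2:22622077-22622376 on the plus strand for Gad2, with the match in capitals:
Syn1: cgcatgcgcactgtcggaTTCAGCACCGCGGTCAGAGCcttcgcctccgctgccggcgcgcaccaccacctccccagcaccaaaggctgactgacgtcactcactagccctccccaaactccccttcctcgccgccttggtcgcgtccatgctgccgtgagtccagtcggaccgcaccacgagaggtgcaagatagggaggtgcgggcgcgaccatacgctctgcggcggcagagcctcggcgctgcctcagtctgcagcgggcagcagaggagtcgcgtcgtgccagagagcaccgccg
Gad2: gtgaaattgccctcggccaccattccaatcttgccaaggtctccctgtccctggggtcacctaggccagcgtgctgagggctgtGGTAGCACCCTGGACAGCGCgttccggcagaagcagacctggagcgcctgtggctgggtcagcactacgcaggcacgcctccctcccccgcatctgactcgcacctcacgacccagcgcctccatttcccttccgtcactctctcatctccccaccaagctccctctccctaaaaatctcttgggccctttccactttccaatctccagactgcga
The letters TATAAA were in 5 of the 44 windows, against 8.32% of all windows, and the median GC content was 57.0% in the windows of these genes and 52.7% over all windows.

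The pools differed for some neuronal genes by more than counting error. Ratios are given as log2, replicate 1 divided by replicate 2, once TMM factors were applied, for the 39 genes that had at least 10 counts in each library. Pou4f2, Scn10a and Trpv1 had fewer. A change past 1.5-fold was seen for 6 of the 39, against 9.08% of all genes, of which 5 were lower in replicate 1, against 4.78%, and 1 was higher, against 4.31%. A ratio below 0 was seen for 31 of 39, against 50.2% of all genes. The exact binomial 95% interval, which covers counting error only, lay wholly below 0 for 16, against 17.6% of all genes, and wholly above 0 for 4, against 18.3%. The median of the 39 was -0.19, against -0.0007 over all genes. Between all genes of these pools the biological coefficient of variation was 0.127, or 0.18 on the log2 scale. It describes a single library about the mean of the group, so a ratio between the libraries is expected to spread more. With 1 library on each side, no test of these ratios was possible.

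Grouped by role, ratios below 0 with TMM scaling were seen for 5 of 5 filament genes, 6 of 6 vesicle and SNARE genes, 4 of 4 RNA-binding genes, 2 of 2 transcription factors with a ratio, 3 of 4 granule cargo genes, 5 of 7 growth cone and microtubule genes and 2 of 6 transmitter genes. Differences between these groups were not tested. Sncg, gamma-synuclein, a protein of peripheral sensory neurons, had the lowest, -0.86 with an interval of -1.41 to -0.37, from 50 and 96 counts and levels of 2.69 TPM in replicate 1 and 4.96 TPM in replicate 2. Slc17a6 had -0.70, Nefl -0.67, Scg3 -0.64 and Nefm -0.60. Nefl and Nefm share reads, so they are not separate evidence. The median was -0.38 for the filament genes, -0.35 for the vesicle and SNARE genes and -0.18 for the RNA-binding genes. Vamp2, on 3357 and 4667 counts, had -0.42 with an interval of -0.48 to -0.35, and Snap25 had -0.57. Among the growth cone genes, whose median was -0.03, Stmn3 had -0.58, Mapt -0.37, Tubb3 -0.13, Map2 -0.03 and Stmn2 -0.01, while Gap43 had 0.09 and Dcx 0.32. Tac1 had 0.56, with an interval of 0.24 to 0.89, while Calca, of the same class, had -0.02. Th was the 1 gene past 1.5-fold that was higher in replicate 1, at 0.84 with an interval of 0.08 to 1.77.

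**Figure D4:**
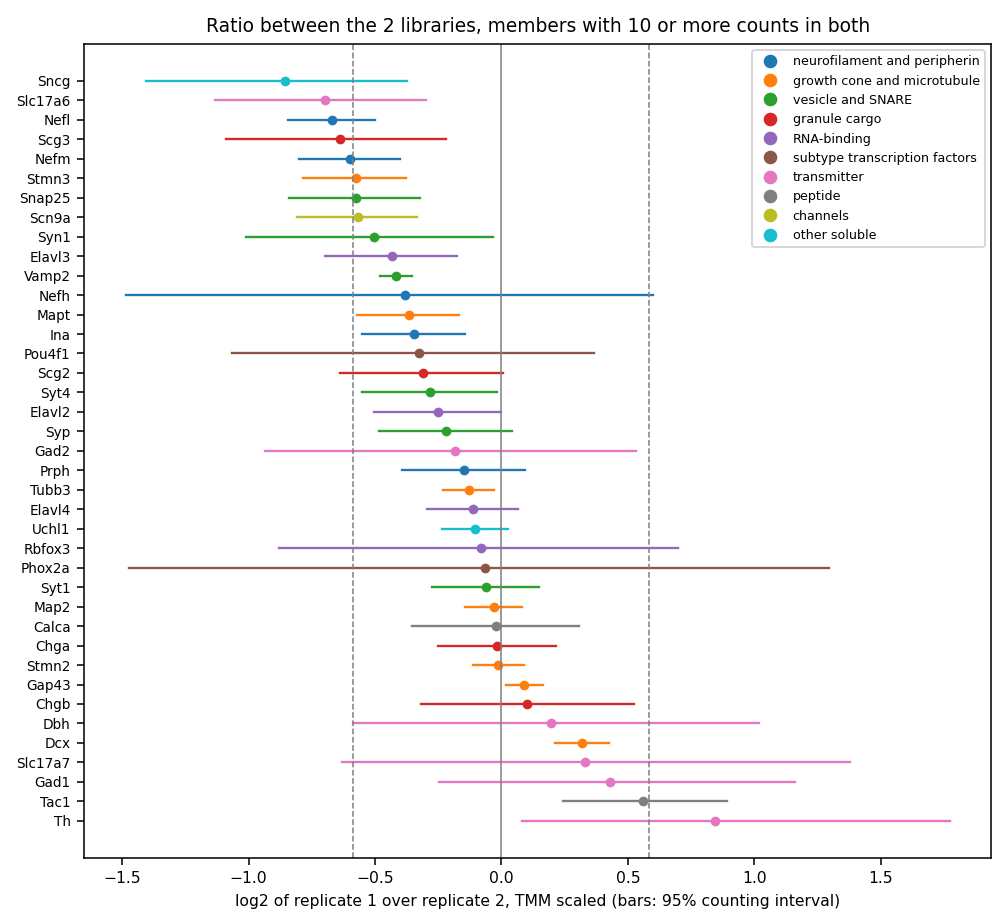
TMM-scaled log2 ratio of replicate 1 to replicate 2 for the 39 genes with at least 10 counts in each library, coloured by role, with bars for the exact 95% counting interval and dashed lines at 1.5-fold. Sncg has the lowest ratio at -0.86 and Th the highest at 0.84, and all 5 filament genes and all 6 vesicle and SNARE genes lie left of 0.

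The sign of the ratios depended on the scaling. A change of scaling shifts the ratios of all genes by nearly the same amount. The gap between the neuronal median and that of all genes could therefore hardly change, and its persistence is no separate support. TMM assumes that most genes did not change, and with spike-in counts in its place the median over all genes moved to 0.65 and that of the neuronal genes to 0.43, so that only 3 of 39 were below 0. The neuronal median minus the median of all genes was -0.22 with spike-ins and -0.18 with TMM. By depth, 3 of 13 neuronal genes with a mean of 10 to 100 counts passed 1.5-fold, against 25.7% of all such genes, and 3 of 20 with 100 to 1000 counts, against 8.45%. None of the 6 with 1000 to 5000 counts did, against 0.784%.

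Markers of the cells that could carry these messages were given beside them, and their part in the ratios was not tested. The olfactory neuron markers, all 8 of them detected, had medians of 8.73 TPM in replicate 1 and 10.97 TPM in replicate 2 and sums of 151 TPM and 158 TPM. They were led by Ncam1, which other tissues share, at 96.3 TPM and 92.3 TPM, Ebf2 at 14.2 TPM and 17.3 TPM and Adcy3 at 13.3 TPM and 13.7 TPM. Their defining gene Omp, the marker of mature olfactory neurons, had 5.84 TPM in replicate 1 and 8.43 TPM in replicate 2. All 8 had ratios below 0, against 50.2% of all genes, with a median of -0.23. The counting intervals of Ncam1, Adcy3, Neurod1 and Gng8 included 0, and Ncam1 and Adcy3 each had a ratio of -0.02. Of the sensory ganglion markers 9 of 12 were detected, with sums of 105 TPM and 114 TPM and a median ratio of -0.04. Drgx was left out of that list for want of a value. Among its higher genes, Ntrk2 and Isl1 had 16.9 TPM and 13.8 TPM in replicate 1 and 16.1 TPM and 17.1 TPM in replicate 2, and are also known from cells that are not neurons. Of the autonomic markers 6 of 10 were detected, with sums of 99.8 TPM and 104 TPM, led by Gata3, Gata2 and Ddc at 40.7 TPM, 18.5 TPM and 19.5 TPM in replicate 1 and 42.5 TPM, 23.8 TPM and 16.3 TPM in replicate 2. Chat, the defining enzyme of cholinergic neurons, was at 0 TPM in replicate 1 and 0.03 TPM in replicate 2. Schwann cells, which wrap peripheral axons, had 9 of 9 markers detected, with sums of 64.6 TPM and 66.3 TPM and a median ratio of -0.07. Erbb3, Mbp and Sox10 led them at 20.7 TPM, 8.78 TPM and 9.05 TPM in replicate 1 and 18.8 TPM, 9.85 TPM and 9.50 TPM in replicate 2.

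Brain and eye markers were low. None of 6 forebrain markers was detected, with sums of 1.44 TPM in replicate 1 and 1.46 TPM in replicate 2. Among them, Emx1 had 0.35 TPM and 0.17 TPM, and Tbr1 0.14 TPM and 0.41 TPM. On 11 and 41 counts Tbr1 had a ratio of -1.67, with an interval of -2.95 to -0.85, and the median over the 2 forebrain markers with a ratio was -0.81. Of 5 retina markers only Isl2 was detected, at 1.84 TPM and 2.29 TPM, ahead of Atoh7 at 0.35 TPM and 0.44 TPM, with list sums of 2.44 TPM and 3.07 TPM. Just 1 retina marker had counts enough for a ratio, which was -0.50. Of 8 neuroendocrine and pituitary markers 3 were detected. Pomc had 1.83 TPM in replicate 1 and 4.67 TPM in replicate 2, Insm1 1.16 TPM and 1.32 TPM and Lhx3 1.44 TPM and 1.02 TPM. On 41 and 109 counts Pomc had a ratio of -1.31, with an interval of -1.91 to -0.82, and 4 of the 5 markers of the list with a ratio were below 0, with a median of -0.50. The 8 markers summed to 6.10 TPM in replicate 1 and 9.56 TPM in replicate 2. Of 3 Merkel cell markers, which mark touch-sensing cells of the epidermis, 2 were detected, with sums of 11.8 TPM and 9.38 TPM: Atoh1 had 5.75 TPM and 4.46 TPM, Sox2 5.59 TPM and 4.49 TPM, and Krt20 0.47 TPM and 0.43 TPM. All 3 had ratios above 0, with a median of 0.31. The facial mesenchyme genes, which mark no neuron, had a median ratio of -0.16, with 5 of 6 below 0, near the -0.19 of the neuronal genes.

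**Figure D5:**
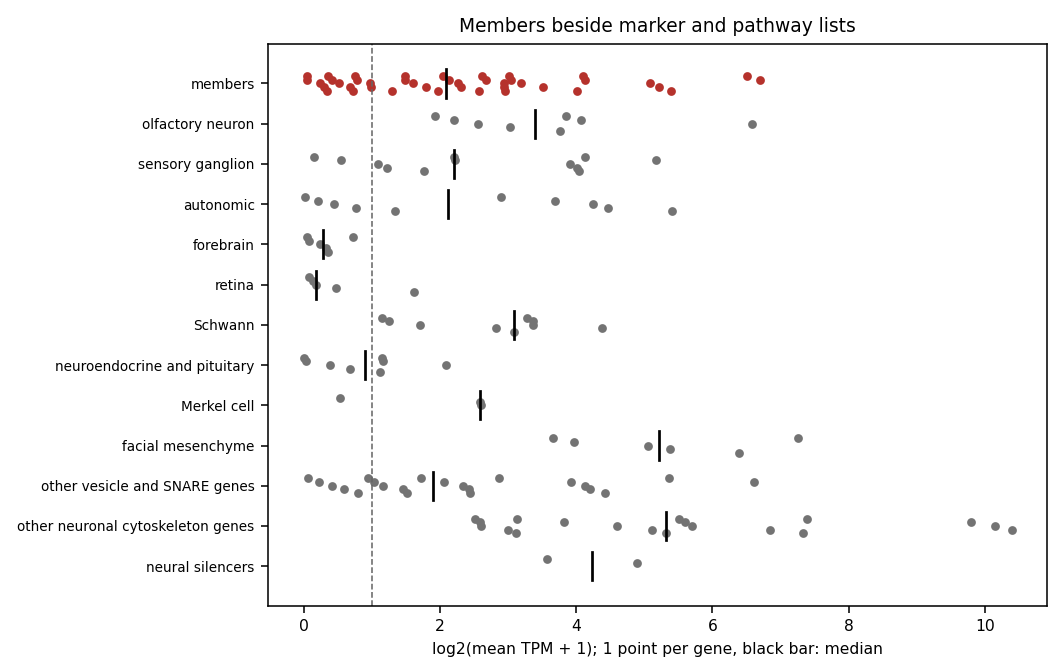
Mean level of each gene as log2(TPM + 1), 1 point per gene, for the 42 genes (top row, red) and for each marker or pathway list, with a black bar at the median and a dashed line at 1 TPM. The olfactory neuron and Schwann markers all lie right of the line, and the forebrain markers all lie left of it.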

How the data were processed

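Embryonic facial prominence RNA was sequenced in 2 libraries of 1 group, and the authors aligned reads to mm10 with annotation M4, per the labels' protocols. Aligner, quantification program and strandedness were not given in the sources used here. The authors deposited an expected count, TPM and FPKM per gene and per transcript, with no scaling between libraries, and a percent of the gene's transcripts for each transcript, per the file headers; FPKM was not used. Deposited credibility bounds were recorded as a score, and their level is not in the tables. Genes were matched to GENCODE M21 (GRCm38) by Ensembl identifier. Levels are TPM as deposited, in whose total spike-ins and rows with bare numbers count. Those rows were not used as genes, and spike-in counts served for an alternative scaling.

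Detection was 1 TPM in both libraries, and levels were averaged as log2(TPM + 1). Expected counts were rounded to whole numbers, scaled by TMM (factors 0.989 and 1.01) with edgeR 4.0.16 in R 4.3.3, and ratios used a prior count of 2 where each library had at least 10 counts. The ratio step was tested on simulated data. DESeq2 1.42.0 gave alternative size factors. Intervals are exact binomial and cover counting error only. Other steps used Python 3.11.15, pandas 2.3.3 and scipy 1.17.1. A sum of expected counts was called whole within 0.02.

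Named were every one of the 42 genes, the 3 genes of each marker or pathway list with the highest mean TPM, markers at 0 counts, and transcripts at 10% or more of Map2, Calca, Mapt, Snap25, Gad1 and Tac1. Some genes this rule names are not reported. Omp and Chat were added as defining markers and Krt20 as the rest of a list of 3. The genes, lists and splits were chosen with earlier results of these data known. Alternatives were other scalings, thresholds and pseudocounts, the authors' posterior mean TPM, each library alone and, chosen after seeing the data, coding transcript models only.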

Additional observations from a re-analysis of the deposited data

How the results depend on the processing

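The count of detected genes ranged from 24 at a threshold of 2 TPM to 32 at 0.5 TPM, beside 28, and was 30 without replicate 1 and 28 without replicate 2. The axon-borne minus cell body difference of 2.23 was 2.15 to 2.31 with a library left out, 2.10 with posterior mean TPM, 3.07 with a pseudocount of 0.1, 1.34 over genes at 1 TPM or more and 2.36 over coding models only, which was added after seeing the data. The GABA sum of 0.94 TPM was 1.37 TPM with posterior means, 1.03 TPM rescaled over mouse genes and 0.45 TPM over coding models only, and the noradrenaline sum of 1.34 TPM was 2.12 TPM with posterior means. Their causes were not tested. The glutamate and neuropeptide sums moved by less than the spread between libraries under these settings.

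The 6 genes past 1.5-fold were 13 with spike-in scaling, 2 at 100 or more counts (fewer genes enter), 9 with total counts or with the ratio of deposited TPM, 7 with no filter and 6 with DESeq2 size factors. The median ratio of -0.19 reversed to 0.43 with spike-in scaling and kept its sign under the other settings. Spike-in scaling shifts all genes nearly alike and moves their median to 0.65. The gap of -0.22 that it leaves is therefore no separate support. No paired analysis was possible because the labels give 1 group. Genes under about 100 counts, which include all 6 transmitter genes but Slc17a6 in replicate 2, have wide counting intervals.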
